A study of Mus musculus with 24 samples.

Results

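Described here are 7 mouse genes in brain RNA: Sfi1, the phosphatidylserine decarboxylase gene Pisd, the Pisd copies Pisd-ps1, Pisd-ps2 and Pisd-ps3, and the chromosome 11 genes Eif4enif1 and Drg1. They are 7 of 53465 genes in the count files. They were chosen by their read counts in brains of the strain CAST/EiJ against brains of WSB/EiJ, with the Pisd copies and the genes near 3 Mb of chromosome 11 added. Their strain differences are therefore given as a description, with standard errors and no test. Of the 7 genes, 5 had reads and the same 5 passed the filter on low counts. Pisd-ps3 and Eif4enif1 were listed at 0 in every animal.

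The study measured total RNA from the brains of 12 mice of a pair of wild-derived inbred strains. The subspecies of origin is castaneus for CAST/EiJ and domesticus for WSB/EiJ. Each strain had 6 animals, numbered separately in the labels, and each animal was sequenced on lanes 5 and 6, which were summed. The series was made to find expression differences between strains that differ in infarct size after arterial occlusion in the brain. The labels give brain and strain for each group, and name no sex, age, treatment, genetic alteration or dissected region, so these values are the levels in the labelled strains as deposited. Animals are called by strain and number below. All CAST libraries precede all WSB libraries in index order, so that order cannot be told apart from strain.

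Pisd encodes the mitochondrial inner membrane enzyme that removes the carboxyl group of phosphatidylserine to make phosphatidylethanolamine, a lipid that mitochondria need for respiration and that is also made from ethanolamine in the endoplasmic reticulum. The enzyme is made as a precursor that cuts itself at a Leu-Gly-Ser-Thr motif, and the serine there becomes the pyruvoyl group of the active site. Sfi1 encodes a long repeat protein that binds centrins at centrioles, the bodies that organise microtubules. Eif4enif1 encodes 4E-T, which carries the cap-binding protein eIF4E and takes part in storage and decay of mRNA, and Drg1 encodes a GTPase that acts with ribosomes.

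In the GENCODE M21 annotation (GRCm38), Sfi1 (ENSMUSG00000023764) lies on the minus strand at chr11:3131850-3193463. Pisd-ps1 (ENSMUSG00000082286), a transcribed unprocessed pseudogene, lies on the plus strand at chr11:3125904-3131004, and 845 bases separate it from the end of Sfi1. Drg1 (ENSMUSG00000020457) lies on the minus strand at chr11:3187360-3266415 and shares 6104 bases with the body of Sfi1. Eif4enif1 (ENSMUSG00000020454) lies on the plus strand at chr11:3202392-3244588, wholly within Drg1. Pisd (ENSMUSG00000023452) is on another chromosome, at chr5:32736301-32785646 on the minus strand. Pisd-ps2 (ENSMUSG00000023795), a second transcribed unprocessed pseudogene, is at chr17:3076578-3084183 on the minus strand. Pisd-ps3 was matched through its RefSeq accession to ENSMUSG00000095041, a gene of 7501 bases on the unplaced scaffold JH584304.1, at positions 52190 to 59690.

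The Pisd copies are close relatives of the coding sequence of Pisd, which bears on how reads could be assigned among them. The transcript of Pisd-ps1 aligned over 910 bases to that of Pisd at 93.74% identity, and the alignment covered 73.4% of the 1218 coding bases of Pisd. The transcript of Pisd-ps2 aligned over 906 bases at 93.82% identity and covered 72.3% of the coding bases. The stretch around the self-cleavage motif is shown because it is where the enzyme makes its active site. In the Pisd line the capitals mark the codons of Leu-Gly-Ser-Thr. In the lines of the copies, capitals mark bases that differ from Pisd.
Pisd: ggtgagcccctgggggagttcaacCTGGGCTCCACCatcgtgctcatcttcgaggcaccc
Pisd-ps1: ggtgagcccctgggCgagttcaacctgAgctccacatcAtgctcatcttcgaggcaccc
Pisd-ps2: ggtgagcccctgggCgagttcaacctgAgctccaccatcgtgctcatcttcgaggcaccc
These are coding positions 1093 to 1152 of Pisd. Pisd-ps1 differed at 3 bases and lacked 1, and Pisd-ps2 differed at 2. Within the 4 codons of the motif, Pisd-ps1 had 2 differing or missing bases and Pisd-ps2 had 1. The longest run of the Pisd coding sequence found unchanged in both copies was 81 bases, coding positions 398 to 478. Untranslated bases of Pisd were not searched. The run is given because a read inside it matches each of the 3 equally.
shared by Pisd, Pisd-ps1 and Pisd-ps2: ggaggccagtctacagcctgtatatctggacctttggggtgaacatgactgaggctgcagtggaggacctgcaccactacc
Of the distinct 32-base words in the transcripts of each gene, 22.21% also occurred in transcripts of other genes for Pisd, 26.36% for Pisd-ps1, 37.11% for Pisd-ps2, 9.06% for Sfi1, 7.55% for Drg1 and 1.88% for Eif4enif1. Transcripts of Pisd-ps3 were not analysed here.

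The overlap of gene bodies limits what the counts can show. Of 1285 protein-coding genes with no base of their body outside other genes, 1271 were listed at 0 in all 12 animals, against 2269 of 20657 other protein-coding genes. Eif4enif1 is one of the 1285, and nothing is said of its expression. All 86 scaffold genes of the files were listed at 0, Pisd-ps3 among them, and nothing is said of its expression either. Pisd has 929 of its 49346 bases outside other genes, because the model Gm20671 spans the rest. Those 929 bases are at the end of the gene and hold 0 coding bases of Pisd, so if only they could receive reads, the Pisd count is one of its 3' end. Of their 32-base words, 0.0% occurred in Pisd-ps1 or Pisd-ps2, and 5.68% occurred in Sfi1. The part of Sfi1 reads in the Pisd count was not tested. Pisd-ps1 and Pisd-ps2 have their whole bodies outside other genes, Sfi1 86.0% and Drg1 37.5%. Counts may hold intronic reads.

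The 12 libraries held 32982569 to 46513232 reads in genes. The neuron markers, 7 genes such as Snap25 and Syt1, summed to 6388 to 7392 CPM (read counts scaled to library size) in CAST and 7172 to 8360 in WSB, and markers of other tissues summed to 16.4 to 23.5 in CAST and 11.2 to 13.6 in WSB. Of the 4 mural cell markers, 3 were lower in CAST, with sums of 95.1 to 114 CPM against 182 to 199 in WSB. Of the 5 microglia markers, 3 were also lower in CAST, with sums of 93.3 to 165 CPM against 155 to 172. Of the 4 tested erythroid markers, 2 were higher in CAST, with sums of 44.1 to 179 CPM against 32.7 to 87.5. Cerebellar granule cell markers reached 802 CPM in CAST_142, and olfactory bulb markers 209 CPM in WSB_100. Choroid plexus markers summed to 122 to 512 CPM in CAST and 31.8 to 681 in WSB, with WSB_138 the highest. Striatal neuron markers summed to 78.8 to 749 CPM in CAST and 396 to 750 in WSB. In bulk RNA, fewer cells of a type and less RNA per cell cannot be told apart. Alignments that were not unique made up 15.62% to 16.14% of alignments in CAST and 16.99% to 17.51% in WSB. The part of these measures in the strain differences below was not tested. When CAST_142 and WSB_100 were left out, the log2 difference of each of the 5 genes moved by less than the spread between animals. That step bears only on the marker sums in which those 2 animals stood out. The mural sums and the share of alignments not unique separate all animals by strain, and leaving out 2 cannot change that. Across the series, 42.7% of 18425 tested genes were called different between the strains (by edgeR, at an adjusted p under 0.05), with 21.5% higher and 21.2% lower in CAST.

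The read counts of Sfi1 were far apart between the strains. In CAST, Sfi1 had a lowest level of 401 CPM, a median of 437 and a highest of 509, from 17303 to 20275 reads per animal. In WSB, the lowest level was 62.8 CPM, the median 78.6 and the highest 83.1, from 2083 to 3815 reads. Every CAST animal was above every WSB animal, and WSB_138 was the lowest of all. The mean was 444 ± 36.3 CPM (SD, n = 6) in CAST and 76.2 ± 7.57 CPM (n = 6) in WSB. The log2 difference was 2.54 ± 0.08 (SE), or 5.82-fold. Its coefficient of variation was 8.18% in CAST and 9.93% in WSB.

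Pisd-ps1, the neighbour of Sfi1 on the opposite strand, had the largest difference of the 5 counted genes. Its level in CAST ran from 411 CPM in CAST_142 to 589 in CAST_201, with a median of 498. In WSB it ran from 39.7 CPM in WSB_138 to 64.5 in WSB_120, with a median of 53.0. The strains did not overlap, and in CAST the animals CAST_170, CAST_200 and CAST_201 stood above the other 3. Means were 505 ± 73.6 and 53.3 ± 9.28 CPM (SD, n = 6 each). The log2 difference was 3.24 ± 0.13 (SE), or 9.47-fold.

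Pisd-ps2 is on chromosome 17 and differed in the same direction. In CAST its lowest level was 156 CPM, its median 181 and its highest 217. In WSB the lowest was 20.3 CPM, the median 23.2 and the highest 27.7. No animals of the strains overlapped, and the same 3 CAST animals, CAST_170, CAST_200 and CAST_201, were the highest. Means were 184 ± 28.9 and 23.6 ± 2.86 CPM (SD, n = 6 each). Its log2 difference was 2.96 ± 0.11 (SE), or 7.8-fold.

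Pisd itself was much closer between the strains. Its level in CAST was 14.0 CPM at lowest, 15.3 at the median and 16.2 at highest, from 517 to 736 reads. In WSB it was 9.47 CPM at lowest, 10.2 at the median and 12.5 at highest, from 370 to 537 reads. The ranges did not overlap, although WSB_169 at 12.5 CPM came near to CAST_201 at 14.0. Means were 15.1 ± 0.871 and 10.7 ± 1.13 CPM (SD, n = 6 each). Its log2 difference was 0.50 ± 0.07 (SE), or 1.41-fold. When the reads of Pisd, Pisd-ps1, Pisd-ps2 and Pisd-ps3 were summed as 1 gene, the log2 difference was 3.01, with most of the reads from the copies.

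Drg1, which shares part of its body with Sfi1, was at a like level in both strains. Its level in CAST was 66.1 CPM at lowest, 70.4 at the median and 74.4 at highest. In WSB it was 65.0 CPM at lowest, 66.0 at the median and 72.1 at highest. These ranges overlapped, and the log2 difference was 0.06 ± 0.04 (SE, n = 6 each). The strains' ranges thus lay apart, higher in CAST, for 4 of the 5 counted genes. Ranges lay apart for 27.1% of all tested genes, and for 13.8% with CAST the higher, and nothing is read from that comparison because the strain contrast was used to choose the genes.

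**Figure D1:**
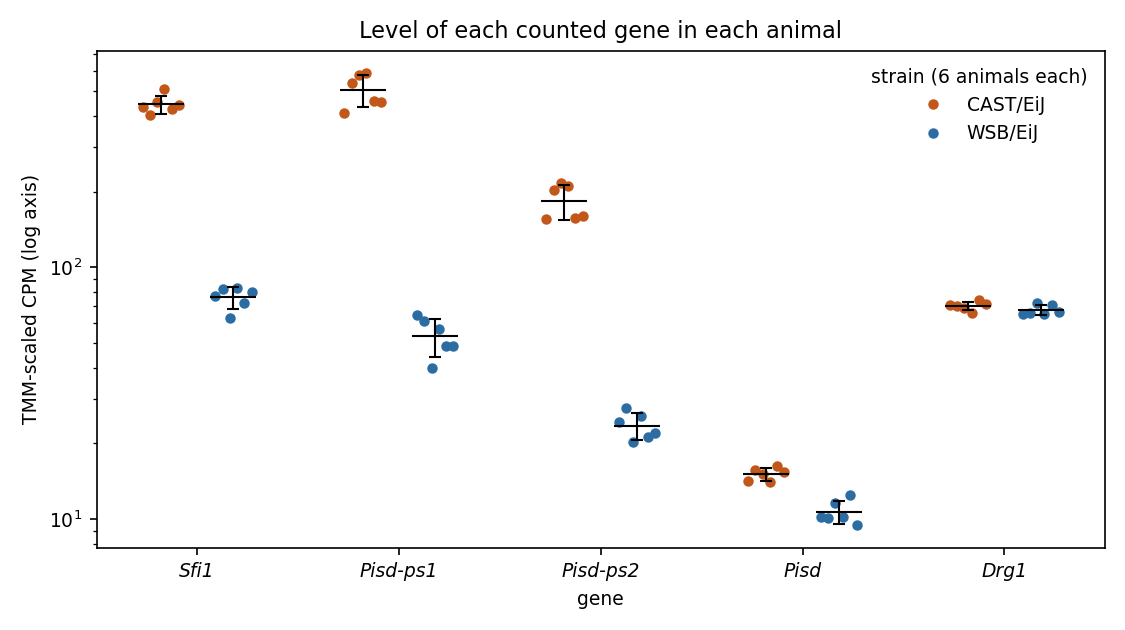
TMM-scaled CPM on a log axis for Sfi1, Pisd-ps1, Pisd-ps2, Pisd and Drg1, with a point for each of 6 animals per strain, a bar at the mean and whiskers of 1 SD. Sfi1, Pisd-ps1 and Pisd-ps2 lie far higher in CAST/EiJ, Pisd lies slightly higher, and the Drg1 points of the strains overlap.

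Levels of different genes were compared per length. Per kilobase of exon outside other genes, mean levels in CAST were 287 CPM for Pisd-ps1, 87.3 for Pisd-ps2, 63.0 for Sfi1, 21.4 for Drg1 and 16.2 for Pisd. In WSB they were 30.3 for Pisd-ps1, 20.5 for Drg1, 11.5 for Pisd, 11.2 for Pisd-ps2 and 10.8 for Sfi1. Pisd-ps1 thus had the highest level per exon length in both strains, and the last 3 in WSB lay close together. Per kilobase of gene body outside other genes, which counts introns as well, Pisd-ps1 was again the highest in CAST at 99.0 CPM, followed by Pisd-ps2 at 24.2, Pisd at 16.2, Sfi1 at 8.38 and Drg1 at 2.37. On that scale Pisd was the highest in WSB at 11.5 CPM, beside 10.5 for Pisd-ps1. The order of these genes thus depended on whether introns were taken into the length. The 929 bases of Pisd outside other genes are all exon, so its value was the same on both scales. Its rank by gene body therefore sets an exon end against bodies that hold introns.

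The reads of Pisd-ps1 and Pisd-ps2 were also set against those of Sfi1 within each animal, as raw reads with no length correction, so that the ratios bear on the strains and not on which gene is higher. In CAST there were 1.14 ± 0.15 reads of Pisd-ps1 for each read of Sfi1 (SD, n = 6), with a range of 0.947 to 1.34. In WSB the ratio was 0.697 ± 0.0833 (n = 6), with a range of 0.608 to 0.836, wholly below that of CAST. For Pisd-ps2 over Sfi1, the ratio was 0.415 ± 0.0621 in CAST and 0.309 ± 0.0223 in WSB. For Pisd-ps1 over Pisd-ps2, it was 2.75 ± 0.113 in CAST and 2.25 ± 0.229 in WSB, where WSB_120 at 2.66 lay within the CAST range. Sfi1, Pisd-ps1 and Pisd-ps2 together made up 1133 ± 123 CPM in CAST and 153 ± 18.3 CPM in WSB.

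**Figure D2:**
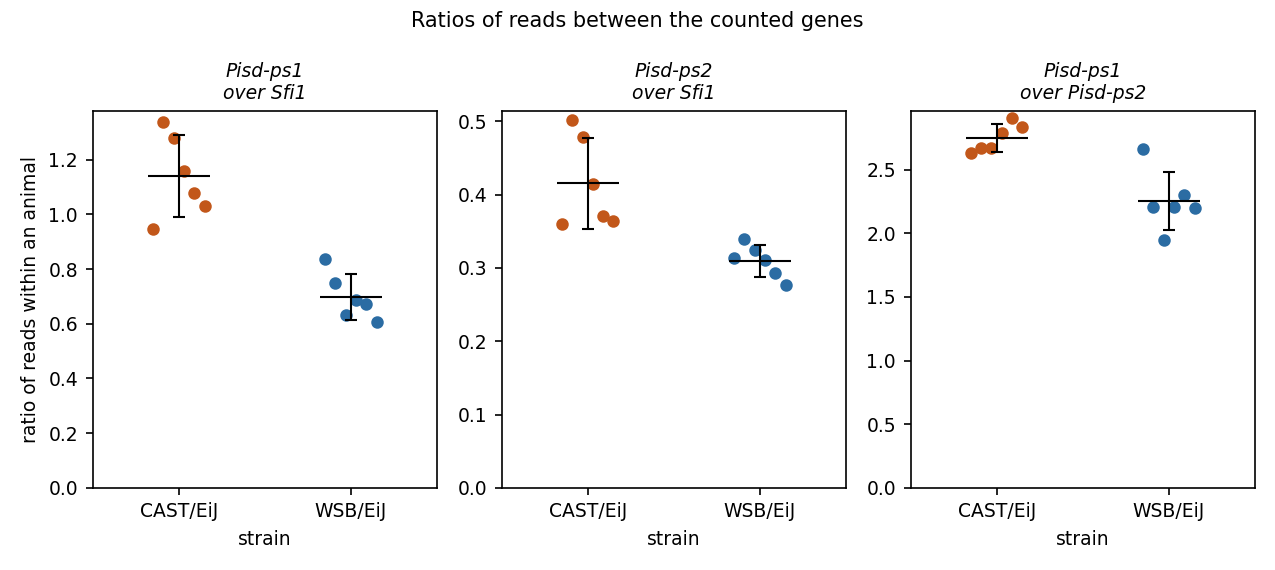
Ratios of reads within each animal for Pisd-ps1 over Sfi1, Pisd-ps2 over Sfi1 and Pisd-ps1 over Pisd-ps2, with a point per animal, a bar at the mean and whiskers of 1 SD (6 animals per strain). The ratio of Pisd-ps1 to Sfi1 is 0.947 to 1.34 in CAST/EiJ and 0.608 to 0.836 in WSB/EiJ.

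How the genes varied among animals of 1 strain does not use the strain contrast. The 10 pairs of the 5 counted genes, and each gene against the share of alignments assigned to more than 1 feature, gave 30 relations of log2 CPM, each over 6 animals. Of the 60 p-values of r and rho, from exact two-sided permutation tests, 11 were under 0.05 before adjustment and 0 after it (smallest adjusted p 0.0833). All points share the scaling to library depth. Pisd-ps1 and Pisd-ps2, which lie on different chromosomes, had r = 0.97 in CAST (exact permutation p = 0.0111, adjusted 0.2) and r = 0.85 in WSB (exact permutation p = 0.0278, adjusted 0.2). Their rho was 0.89 in CAST (exact permutation p = 0.0333, adjusted 0.2) and 0.77 in WSB (exact permutation p = 0.103, adjusted 0.273). Without the 2 of 6 animals farthest from the median of Pisd-ps1, r was 1.0 in CAST and 0.99 in WSB. With so few animals left, nothing is drawn from that rise in r.

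Sfi1 and Pisd-ps1, although close neighbours, had r = 0.46 in CAST (exact permutation p = 0.403, adjusted 0.537) and r = 0.79 in WSB (exact permutation p = 0.0833, adjusted 0.273). The respective rho values were 0.49 and 0.49 (exact permutation p = 0.356, adjusted 0.485, in each). Without WSB_138 and WSB_169 the r in WSB was -0.24, so it rested on those animals. Without CAST_170 and CAST_201 the r in CAST rose to 0.75. Sfi1 and Drg1 had r = -0.73 in CAST and r = -0.92 in WSB (exact permutation p = 0.106 and 0.025, adjusted 0.273 and 0.2), with rho of -0.6 and -0.83 (exact permutation p = 0.242 and 0.0583, adjusted 0.426 and 0.25). The r in WSB was -0.23 without WSB_138 and WSB_169, and that in CAST was -0.9 without CAST_170 and CAST_201. The inverse relation was not particular to Sfi1. Drg1 and Pisd-ps1 had r = -0.7 in CAST and -0.86 in WSB (exact permutation p = 0.114 and 0.0306, adjusted 0.273 and 0.2). Drg1 and Pisd-ps2 had r = -0.76 in CAST and -0.83 in WSB (exact permutation p = 0.0444 and 0.0167, adjusted 0.242 and 0.2). Drg1 and Pisd went the other way, with r = 0.78 in CAST and 0.84 in WSB (exact permutation p = 0.0583 and 0.133, adjusted 0.25 and 0.302). For that pair, r was 0.88 in CAST without CAST_142 and CAST_201, and -0.96 in WSB without WSB_138 and WSB_169. In CAST, Sfi1 and the share of alignments in more than 1 feature, which was highest at 16.53% in CAST_201, had r = 0.95 and rho = 1.0 (exact permutation p = 0.00278 and adjusted p = 0.0833 for each). Without CAST_170 and CAST_201, this r was 0.92. The same relation in WSB had r = 0.29 and rho = 0.43 (exact permutation p = 0.575 and 0.419, adjusted 0.663 and 0.547), and r = 0.28 without WSB_138 and WSB_169. Whether that share plays a part in the level of Sfi1 was not tested.

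Among 14097 other genes with a mean of at least 1 on the log2 CPM scale, those most like Sfi1 over the 12 animals, after subtraction of each strain's mean, included Gm527 (r = 0.88) and Npas4 (r = 0.85). Npas4 encodes an activity-induced transcription factor of neurons. Those most like Pisd were Lias (r = 0.91), Snf8 (r = 0.90) and Arl6ip1 (r = 0.89). Lias makes the lipoic acid that mitochondrial dehydrogenases carry, and Snf8 is a subunit of the endosomal sorting complex ESCRT-II. These correlations are a description, since the genes were picked as the highest of all and share libraries and scaling.

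Gene models beside the described genes were tested with the whole table. Within 1 Mb of Sfi1, 28 of 54 other genes were tested, 2 were higher and 12 were lower in CAST (50.0% called). Of all tested genes, 42.7% were called, 21.5% higher and 21.2% lower in CAST. The median log2 difference of these neighbours was -0.06, against 0.0 over all genes. The count of 14 became 9 without CAST_200. The 2 higher genes, Rnf185 and Rnf215, named after their values were seen, encode ubiquitin ligases of the RING type and were higher by 0.11 ± 0.04 and 0.19 ± 0.06 on the log2 scale (edgeR adjusted p = 0.0434 and 0.0174). Their ranges overlapped between strains. The nearest tested gene beyond Drg1 was Patz1, a zinc finger transcription factor 95.4 kb from Sfi1, at 34.4 ± 1.73 CPM in CAST and 33.5 ± 2.78 in WSB (log2 difference 0.04 ± 0.06, edgeR adjusted p = 0.618). On the side of Pisd-ps1 no other gene was tested within the window.

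Differences of at least 2-fold were called for 2 of the 28, against 12.2% of all tested genes, and both were lower in CAST. They are the uncharacterised genes 8430429K09Rik, at -1.74 ± 0.08 on the log2 scale (edgeR adjusted p = 8.18e-10), and 4930556J24Rik, at -1.73 ± 0.26 (edgeR adjusted p = 9.23e-05), and were named after their values were seen. The first was at 3.33 ± 0.374 CPM in CAST and 11.1 ± 0.303 in WSB, and lies 259 kb from Sfi1. The second had 4 to 26 reads per animal.

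Around Pisd on chromosome 5, 24 of 59 genes were tested, 5 were higher and 7 lower in CAST (50.0% called), with a median log2 difference of -0.02. Within 0.5 Mb of Pisd, 13 were tested, 0 were higher and 5 lower (38.5% called). Both shares stand beside 42.7% of all tested genes, 21.5% higher and 21.2% lower in CAST. The nearest on 1 side was Gm2420, a transcribed unprocessed pseudogene at chr5:32720330-32736194, 106 bases from the end of Pisd. Gm2420 is also close in sequence to Sfi1: its transcript aligned to the coding sequence of Sfi1 over 2266 bases at 93.91% identity, and 16.8% of its 32-base words occur in Sfi1. Sequences of both genes thus lie side by side in each place, Sfi1 beside Pisd-ps1 on chromosome 11 and Gm2420 beside Pisd on chromosome 5. The longest run of the Sfi1 coding sequence found unchanged in Gm2420 was 78 bases, coding positions 2277 to 2354 of 3648. It is shown because reads inside it match both.
shared by Sfi1 and Gm2420: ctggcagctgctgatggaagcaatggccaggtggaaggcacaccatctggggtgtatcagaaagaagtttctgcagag
Gm2420 differed in the opposite direction to Sfi1. It was at 3.93 ± 0.632 CPM in CAST, with a range of 3.37 to 4.67, and at 6.48 ± 1.19 in WSB, with a range of 5.22 to 8.2, and the ranges did not overlap. The log2 difference was -0.72 ± 0.14 (edgeR adjusted p = 0.000722).

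On the other side of Pisd, Prr14l was at 58.7 ± 2.47 CPM in CAST and 61.1 ± 2.53 in WSB (log2 difference -0.06 ± 0.04, edgeR adjusted p = 0.274). Gm20671, which spans nearly all of Pisd and shares 66.529% of its 32-base words with it, was at 1.05 ± 0.14 CPM in CAST and 1.3 ± 0.207 in WSB (log2 difference -0.30 ± 0.13, edgeR adjusted p = 0.0877). Plb1, a phospholipase gene, was called at 2-fold or more among these neighbours, at -1.05 ± 0.27 on the log2 scale (edgeR adjusted p = 0.00737), with 8 to 35 reads per animal and overlapping ranges. The uncharacterised models Gm5864 and Gm15614, named after their values were seen, were also lower, at -1.42 ± 0.26 and -1.40 ± 0.18 (edgeR adjusted p = 0.000623 and 2.16e-05), with 5 to 36 and 11 to 49 reads per animal. Of the other models that share most 32-base words with Sfi1 or Pisd, Gm27773, Gm11399 and Gm43695 were listed at 0, and Ctrcos and Gm48781 had 2 and 10 reads over all animals.

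Around Pisd-ps2 on chromosome 17, 5 of 11 genes were tested, 1 higher and 1 lower in CAST (40.0% called, near the 42.7% of all tested genes). The lower was Gm10232, a processed pseudogene 31.8 kb from Pisd-ps2, at 9.55 ± 0.875 CPM in CAST and 21.3 ± 1.21 in WSB (log2 difference -1.16 ± 0.07, edgeR adjusted p = 9.11e-09). The higher was Scaf8, which encodes a protein that binds RNA polymerase II, at 91.5 ± 2.83 CPM against 79.5 ± 2.99 (log2 difference 0.20 ± 0.04, edgeR adjusted p = 0.000383). They lie 31.8 and 30.8 kb from Pisd-ps2, on either side.

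**Figure D3:**
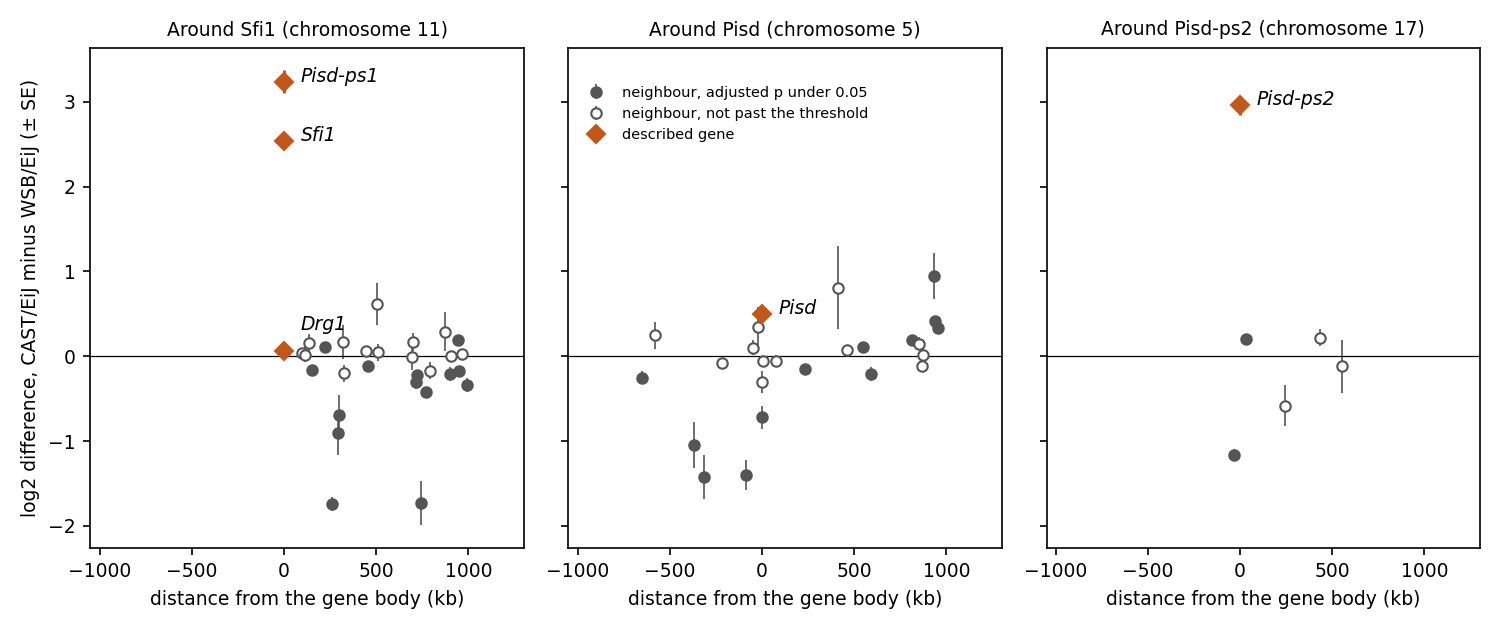
Log2 difference of CAST/EiJ minus WSB/EiJ with its SE for tested genes within 1 Mb of Sfi1, Pisd and Pisd-ps2, by distance from the gene body in kb. Filled circles had an edgeR adjusted p under 0.05, open circles did not, and diamonds are the described genes. Sfi1, Pisd-ps1 and Pisd-ps2 lie at 2.54, 3.24 and 2.96.

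Genes that act with the described genes were counted from fixed lists, and read against the 42.7% of all tested genes called. Of 15 genes for the synthesis of phosphatidylethanolamine, phosphatidylserine and phosphatidylcholine or for the turnover of their phosphorylated precursors, 14 were tested, 4 were higher and 2 lower in CAST, with a median of 0.06 on the log2 scale. Selenoi, an ethanolamine phosphotransferase of the route that does not use Pisd, was at 75.2 ± 4.44 CPM in CAST and 101 ± 2.37 in WSB (log2 difference -0.42 ± 0.04, edgeR adjusted p = 2.39e-06). Cept1, another phosphotransferase of the list, had a log2 difference of 0.01 ± 0.04 (edgeR adjusted p = 0.838). Etnk2, an ethanolamine kinase, was higher in CAST by 0.73 ± 0.12 (edgeR adjusted p = 0.00032), and Chpt1, a cholinephosphotransferase, by 0.26 ± 0.06 (edgeR adjusted p = 0.00297). Etnk1 and Pcyt1a were higher and Ptdss1, which makes the phosphatidylserine that Pisd uses, was lower by smaller amounts. No member of the list differed by 2-fold or more among those called. Phospho1, the gene not tested, has 0.0% of its body outside other genes and was listed at 0, so nothing is said of its expression.

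Of 10 genes for the transport of phosphatidylserine into mitochondria and for the upkeep of inner membrane proteins, all 10 were tested, 1 was higher and 3 were lower, with a median of 0.01. Phb, a prohibitin of the inner membrane, was at 21.1 ± 1.27 CPM in CAST and 12.4 ± 0.591 in WSB (log2 difference 0.77 ± 0.05, edgeR adjusted p = 6.06e-08). Its partner Phb2 had a log2 difference of 0.05 ± 0.04 (edgeR adjusted p = 0.358). Oma1, an inner membrane protease, was lower in CAST at 7.32 ± 0.487 against 11.7 ± 0.483 CPM (log2 difference -0.68 ± 0.06, edgeR adjusted p = 6.32e-07), and the lipid carrier Prelid3a was lower by a log2 difference of -0.26 ± 0.06 (edgeR adjusted p = 0.00197). The protease Yme1l1 was lower by a log2 difference of -0.13 ± 0.04 (edgeR adjusted p = 0.0122).

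Of 18 centrin and centriole genes, 17 were tested, 3 were higher and 5 lower in CAST (47.1% called), with a median of 0.06. Poc5, which binds centrins as Sfi1 does, was higher at 55.1 ± 3.06 against 39.7 ± 0.689 CPM (log2 difference 0.47 ± 0.04, edgeR adjusted p = 5.76e-07). Crocc, the main protein of the ciliary rootlet, was higher by 0.84 ± 0.06 (edgeR adjusted p = 1.24e-07). Plk4, the kinase that starts centriole duplication, was lower at 2.85 ± 0.275 against 6.72 ± 0.48 CPM (log2 difference -1.24 ± 0.08, edgeR adjusted p = 6.36e-08). Of the tested centrins, Cetn4 was higher by 0.55 ± 0.15 and Cetn3 lower by a log2 difference of -0.17 ± 0.06 (edgeR adjusted p = 0.00806 and 0.0262), and Cetn2 was at -0.08 ± 0.07 (edgeR adjusted p = 0.392).

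Of 20 genes of the 4E-T complex and mRNA decay, which stand in here for what Eif4enif1 acts with, 18 were tested, 2 were higher and 3 lower (27.8% called), with a median of -0.03. Dcp1b, a decapping cofactor, was higher at 39.2 ± 2.05 against 22.6 ± 2.19 CPM (log2 difference 0.79 ± 0.06, edgeR adjusted p = 3.13e-07). Eif4e, the cap-binding protein that 4E-T carries, was lower at 54.4 ± 4.69 against 73.1 ± 2.17 CPM (log2 difference -0.42 ± 0.05, edgeR adjusted p = 2.69e-05), and Eif4ebp2, which also binds eIF4E, was lower by a log2 difference of -0.23 ± 0.05 (edgeR adjusted p = 0.00184). Ddx6, the helicase bound by 4E-T, had a log2 difference of -0.06 ± 0.04 (edgeR adjusted p = 0.203).

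Of 5 genes related to Drg1, 4 were tested, 1 was higher and 1 lower (50.0% called), with a median of -0.01. The other gene, Jmjd7, has 0.196% of its body outside other genes and was listed at 0 in every animal. Nothing is said of its expression. Drg2, its paralogue, was higher in CAST at 52.7 ± 2.63 against 44.5 ± 1.06 CPM (log2 difference 0.25 ± 0.04, edgeR adjusted p = 0.000166). Rwdd1, which stabilises Drg2, was lower at 3.63 ± 0.303 against 4.97 ± 0.732 CPM (log2 difference -0.46 ± 0.10, edgeR adjusted p = 0.00266). Zc3h15, which stabilises Drg1, was at 82.2 ± 3.95 and 83.3 ± 4.84 CPM (log2 difference -0.02 ± 0.05, edgeR adjusted p = 0.771). Gcn1, annotated as Gcn1l1, was at 119 ± 5.01 and 119 ± 4.06 CPM (edgeR adjusted p = 0.953).

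**Figure D4:**
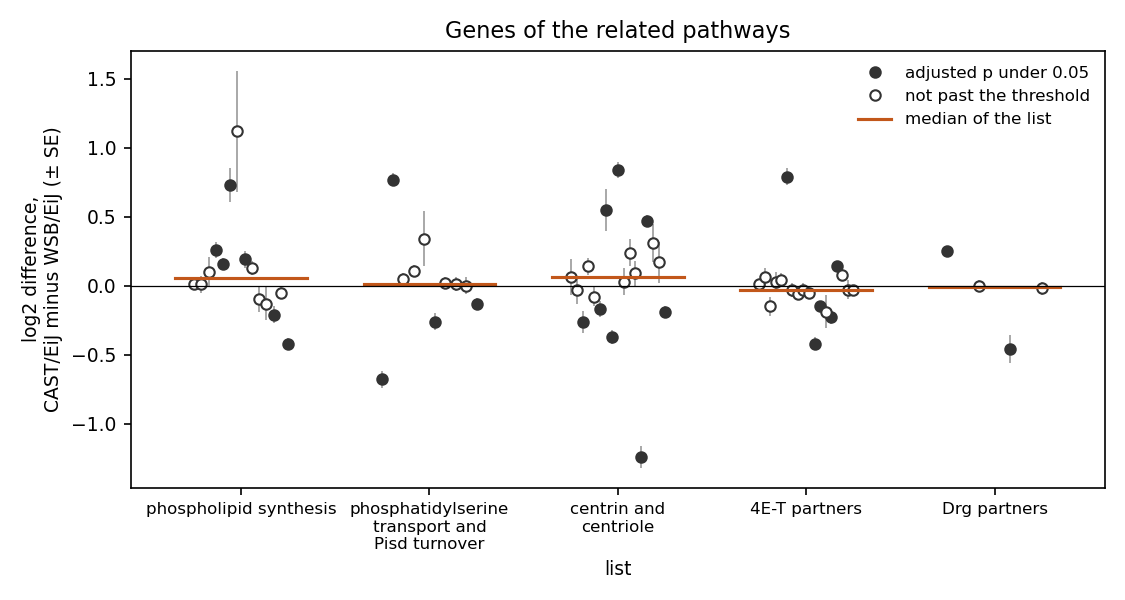
Log2 difference of CAST/EiJ minus WSB/EiJ with its SE for each tested gene of the 5 lists, with filled circles for edgeR adjusted p under 0.05 and a line at the median of each list. The medians lie between -0.03 and 0.06, and Plk4 at -1.24 is the lowest point.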

How the data were processed

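The authors deposited raw counts of reads per Ensembl gene, 1 file per animal and lane. Per the submitters' processing notes, cutadapt, TopHat2 2.1.1, HTSeq and DESeq2 were used. The genome build, annotation, read length and strandedness behind the counts were not given in the sources used here, and reads of overlapping genes cannot be told apart. The 5 counters that name no gene were left out (4.04% to 4.95% of alignments in no feature, 11.1% to 16.53% in more than 1, 15.62% to 17.51% not unique). Lanes of an animal were summed as repeat runs of 1 library. GENCODE M21 (GRCm38) gave symbols for 53360 of 53465 genes, positions and transcript sequences. Pisd-ps3 was matched through RefSeq.

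The strain comparison was fitted by edgeR 4.0.16 under R 4.3.3 (quasi-likelihood test, robust, TMM, default expression filter, Benjamini-Hochberg over 18425 genes). The fit was also run on simulated counts. These gave all genes the same dispersion, unlike the data, so nothing is drawn from that run. CPM values are TMM-scaled, and log2 CPM used a prior count of 2. SE is the log2 difference divided by the square root of F. Copies were aligned with BLAST 2.17.0. Within-strain relations used exact permutation in scipy 1.17.1 and were added after the data were seen. The edgeR p-values set the strain difference against the spread between the labelled animals. Those of r and rho concern the pairing of values among animals within a strain.

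The members and lists were chosen with earlier results of these data known. Named genes are the 7 members, in each window the nearest tested genes and called genes of at least 2-fold with an established symbol, in each list the 3 called genes of smallest p, the 3 genes most like Sfi1 and Pisd, and up to 4 sharing most sequence with each. One gene that this rule named is not reported here. Other names were chosen after their values were seen. Alternatives were RLE scaling, no filter, DESeq2 1.42.0, single lanes, left-out animals, summed Pisd copies and a 0.5 Mb window.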

Additional observations from a re-analysis of the deposited data

Results flagged for a closer look

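Among 36 strain groups of values searched for an animal far from the rest, 1 had such an animal, where chance flags about 1 in 20 groups. Gm10232, the pseudogene 31.8 kb from Pisd-ps2, was at 23.7 CPM in WSB_138, and the next highest WSB animal was at 21.5 CPM. No such animal was found for the 5 counted genes or the ratios between Pisd-ps1, Pisd-ps2 and Sfi1.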

How the results depend on the processing

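Of 93 values of the log2 differences of the 5 counted genes under the alternatives, 92 moved by less than the spread between animals and none reversed. The exception was Pisd summed with its copies, at 3.01. Leaving out 1 animal at a time gave 2.49 to 2.57 for Sfi1, 0.46 to 0.55 for Pisd, 3.17 to 3.3 for Pisd-ps1, 2.91 to 3.01 for Pisd-ps2 and 0.05 to 0.08 for Drg1. Of 165 counts of called genes, 161 stayed within 1.5 times the main count. The called neighbours of Sfi1 numbered 9 to 14 when 1 animal was left out, with 9 without CAST_200, and 6 in the 0.5 Mb window, where 12 genes were tested. Those of Pisd numbered 5 in the 0.5 Mb window, 0 higher and 5 lower in CAST, where 13 genes were tested. Those of Pisd-ps2 numbered 4 with no filter on low counts, where 8 genes were tested. All genes called ranged from 6567 to 9066.

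No paired analysis was possible because the animals of the strains share no numbers. How CAST and WSB reads align to a reference genome, and the number of copies of these sequences in each strain, were not analysed here. Depth limits 4930556J24Rik, with 4 to 26 reads per animal, Plb1, with 8 to 35, Gm5864, with 5 to 36, and Gm15614, with 11 to 49.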
